A study of Macaca mulatta with 25 samples.

Results

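Blastocysts of rhesus macaque females given testosterone were compared directly with blastocysts of females fed a Western-style diet. All libraries of these groups were taken, 10 testosterone (T) and 8 Western-style diet (WSD) libraries out of 25 in the series, and no control library entered the comparison. The study began with 4 groups of 10 females at about 2.5 years of age, just before puberty, and asked how raised androgen, the diet or both affect preimplantation embryos. T females ate standard chow (15% fat, 59% carbohydrate, 26% protein) and carried testosterone implants that held their circulating testosterone at 3 to 5 times the normal level. WSD females ate an obesogenic diet (36% fat, 46% carbohydrate, 18% protein), and the labels name no implant for them. After 5 to 6 years, 7 T and 6 WSD females were given gonadotropins to raise several follicles, their oocytes were fertilised in vitro with fresh semen from 4 males, and embryos were grown for up to 8 days. The zona pellucida was removed before RNA isolation. The treatments were given to the mothers, and the labels name none for the embryos in culture. Since 10 T libraries came from at most 7 females and 8 WSD libraries from at most 6, some libraries of a group shared a mother. The labels do not say which, so p-values here measure the spread between libraries and may be too small.

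A blastocyst holds an outer epithelium, the trophectoderm, which forms the placenta, and an inner cell mass that separates into epiblast, the future body, and primitive endoderm, the future yolk sac. Its first messenger RNAs are stored in the oocyte and are replaced by the embryo's own after genome activation. Androgens act through a nuclear receptor, while dietary fat reaches the oocyte through follicular fluid and feeds lipid stores, sterol synthesis and fatty acid oxidation.

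No gene differed between T and WSD blastocysts at an adjusted p under 0.05. Of 13128 genes tested with edgeR's quasi-likelihood test, 0 passed (0%), and the lowest adjusted p was 0.251. At an unadjusted p under 0.05 there were 558 genes (4.25% of those tested), 309 with a higher estimate in T (2.35%) and 249 with a lower one (1.9%). None of these is called changed below, and those with the smallest p are described as leading estimates. DESeq2 called 9 genes from the same counts with outlying values replaced, its default for groups of this size. Limma's voom fit with quality weights called 0, with 1044 (7.95%) at an unadjusted p under 0.05. An exact Wilcoxon test called 0, with 643 (4.9%). The median log2 change (T minus WSD) over all genes was 0.02. For 6874 genes (52.4%) the 95% interval of the change lay within 2-fold in either direction, and 973 genes (7.41%) had an estimate beyond 2-fold. Biological variation between libraries of a group was large, with a common coefficient of variation of 0.743.

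All 18 libraries carried the defining transcripts of a blastocyst. Levels are counts scaled by library size (CPM). The lowest level of CDX2, a trophectoderm transcription factor, was 34.9 CPM, in T 1. That of POU5F1, which maintains pluripotent cells, was 244 CPM, in WSD 6. That of GATA6, which specifies primitive endoderm, was 95 CPM, in T 1. Total counts ran from 14219054 to 35544542 per library and 14247 to 21793 genes had at least 1 count. T 1, T 11 and WSD 6 stood apart, a set of 3 chosen after seeing the data. Some results that rest on them are given with and without them, and other estimates moved too. Library T 1 had a summed level of 14 syncytiotrophoblast and placental hormone genes of 4512 CPM, while the next T library had 366 CPM and the highest WSD library, WSD 6, had 671 CPM. Library T 11 had 1023 CPM over 20 oocyte genes, against 290 CPM in the next T library and 346 CPM in WSD 1, the highest of WSD. Library WSD 6 had the fewest genes detected. Sperm and blood were close to absent: 9 of 10 sperm markers stayed under 1 CPM in every library, and the blood list never summed to more than 24.6 CPM. Of 14 cumulus and granulosa markers, 6 stayed under 1 CPM in every library, among them FSHR and AMH, which define granulosa cells. Others, such as STAR and SERPINE2, were read in every library.

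**Figure D1:**
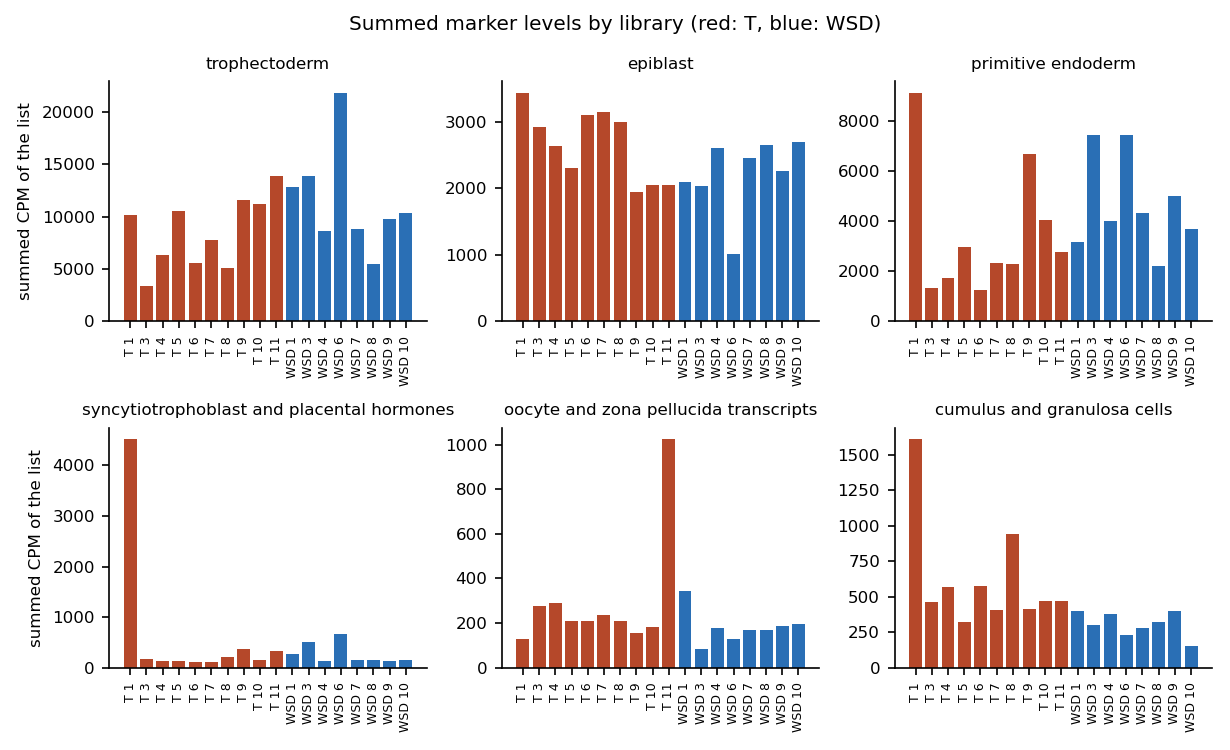
Summed TMM-scaled CPM (y axis) of the matched genes of 6 marker lists in each of the 18 libraries (x axis; red bars T, blue bars WSD). T 1 reached 4512 CPM over the syncytiotrophoblast list and T 11 reached 1023 CPM over the oocyte list, both above every other library.

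As whole profiles, T and WSD embryos did not separate past the threshold. The split into T and WSD accounted for 6.04% of the squared distance between log2 CPM profiles, and an exact one-sided permutation test with 43758 arrangements of the labels gave p = 0.326 (adjusted over 4 such tests, 0.653). The mean over those arrangements was 5.88%. The correlation of log2 CPM profiles had a median of 0.861 over 45 pairs of T libraries, 0.867 over 28 pairs of WSD libraries and 0.860 over 80 pairs of a T with a WSD library. The most similar library belonged to the same treatment for 8 of 18 libraries, namely 3 of 10 T and 5 of 8 WSD libraries.

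Variation among the embryos of a treatment also did not differ past the threshold. The mean distance of a library to its group's centre was 127.9 ± 23.0 (SD, n = 10) for T and 125.8 ± 23.4 (SD, n = 8) for WSD, with p = 0.852 by an exact two-sided permutation test (adjusted 0.875). The difference, T minus WSD, was 2.07, and it fell below 0 without T 1 (-5.52), without T 10 (-1.13) or without WSD 4 (-0.36). Genes detected numbered 17916 ± 1828 (SD, n = 10) in T and 17764 ± 2187 (SD, n = 8) in WSD, with exact permutation p = 0.875 (adjusted 0.875). This difference was 152, and it fell below 0 without WSD 6 (-350.4), T 11 (-278.8) or WSD 7 (-173.1). Total counts averaged 19873000 in T and 23239700 in WSD, with exact permutation p = 0.219 (adjusted 0.653). Missing the threshold does not show that the groups are alike.

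**Figure D2:**
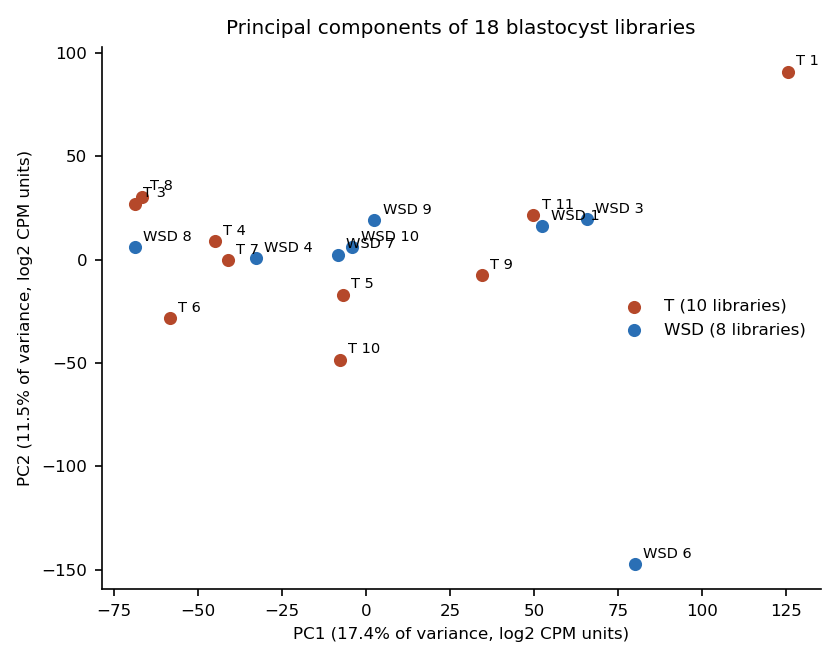
Each point is 1 library placed by its first principal component (x axis, 17.4% of variance) and second (y axis, 11.5%), computed from log2 CPM of all tested genes; red T, blue WSD. T and WSD points are interspersed, T 1 lies at the far right at 125.5 and WSD 6 at the bottom at -147.3.

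PHYHD1 (ENSMMUG00000032026), a member of the 2-oxoglutarate-dependent dioxygenase family, had the smallest p of all genes. Its level was 0.602, 1.77 and 5.22 CPM (lowest, median, highest) in T and 2.41, 16.9 and 26.5 CPM in WSD. All 8 WSD libraries lay above the T median, and 5 WSD libraries lay above every T library. The WSD libraries fell into a low set of WSD 3, WSD 4 and WSD 6, between 2.41 and 2.95 CPM, and a high set of the other 5, from 16.3 CPM up, so the ranges overlapped through that low set, with T 5 above WSD 3 and T 1, the highest of T, above all 3. The log2 change was -2.85 ± 0.54 (SE), with unadjusted p = 2.86e-05 and adjusted p = 0.251 by edgeR. Without T 1 it was -3.15 with an adjusted p of 0.0928, and it did not pass in any edgeR refit. DESeq2 gave an adjusted p of 0.000224. Controls spread over both levels, from 1.25 to 30.7 CPM, and the pair of libraries from mothers given both treatments had 0.329 and 0.297 CPM.

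PRKCI (ENSMMUG00000011222) encodes atypical protein kinase C iota, a kinase of the apical polarity complex that marks the outer cells of the early embryo. Its level was 38.2, 54.2 and 68.9 CPM in T and 63.1, 85.1 and 114 CPM in WSD. All WSD libraries but WSD 1, 7 in number, exceeded every T library, and 9 T libraries lay below every WSD library. The overlap was between T 5 and WSD 1. The log2 change was -0.70 ± 0.14 (SE), a 1.63-fold lower level in T, with unadjusted p = 3.83e-05 and adjusted p = 0.251 by edgeR. Its spread was small beside that of PHYHD1, and leaving out any library in turn kept the estimate between -0.76 and -0.65. DESeq2 gave an adjusted p of 0.000433. The lowest control had 10.3 CPM, below every T and WSD library.

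MICAL1 (ENSMMUG00000023221) encodes a flavoprotein that oxidises and takes apart actin filaments. Its level was 2.86, 4.43 and 10.7 CPM in T and 6.73, 14.9 and 24.3 CPM in WSD. The ranges overlapped between T 5 and T 7, the highest of T, and WSD 8, the lowest of WSD. The log2 change was -1.55 ± 0.33 (SE), with adjusted p = 0.420 by edgeR and 0.00632 by DESeq2.

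GLOD4 (ENSMMUG00000011417), a protein with glyoxalase domains, had the smallest p among genes with a higher estimate in T. Its level was 24.5, 55.8 and 106 CPM in T and 15.0, 22.0 and 29.6 CPM in WSD. T libraries fell into a high set (T 1, T 3, T 6, T 9 and T 11, from 77.3 CPM up) and a low set (the other 5, at or under 34.3 CPM), while all WSD libraries were low. Every T library lay above the WSD median. The log2 change was 1.43 ± 0.31 (SE), with unadjusted p = 0.00016 and adjusted p = 0.420 by edgeR, and 0.00952 by DESeq2. Of the 5 controls, 1 had 183 CPM while the others had 31.3 CPM or less.

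LIF (ENSMMUG00000048630), a cytokine of the interleukin-6 family with a known role in implantation, was read in 7 of 10 T libraries and in 2 of 8 WSD libraries. T libraries held 353 reads of it and WSD libraries held 3, a ratio of 109 after scaling for depth, with an exact 95% interval of 37.1 to 533 that covers counting error only. Its level was 0, 1.11 and 4.93 CPM in T and 0, 0 and 0.0739 CPM in WSD. T 11, T 1, T 6, T 3 and T 7 were over 1 CPM, and T 4, T 8 and T 10 had no read, so the T libraries were themselves mixed. The fitted log2 change was 6.41 ± 1.49 (SE), with adjusted p = 0.660 by edgeR and 0.0188 by DESeq2. The gene passed the filter on low values only through 5 T libraries, so it had to differ, and it is given as a description. It dropped out when any of these libraries was left out. A gene without a symbol, ENSMMUG00000056008, had DESeq2's lowest adjusted p, 2.17e-05. Its level was 0.212, 0.588 and 4.84 CPM in T and 0.555, 8.73 and 93.3 CPM in WSD, and edgeR gave a log2 change of -4.42 ± 0.88 (SE) with adjusted p = 0.256. LDHAL6A, a lactate dehydrogenase-like gene, passed in DESeq2 only, with a log2 change of 4.59 and an adjusted p of 0.00952. By edgeR its log2 change was 1.75 ± 1.30 (SE). Of the genes DESeq2 called, 3 had no symbol.

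**Figure D3:**
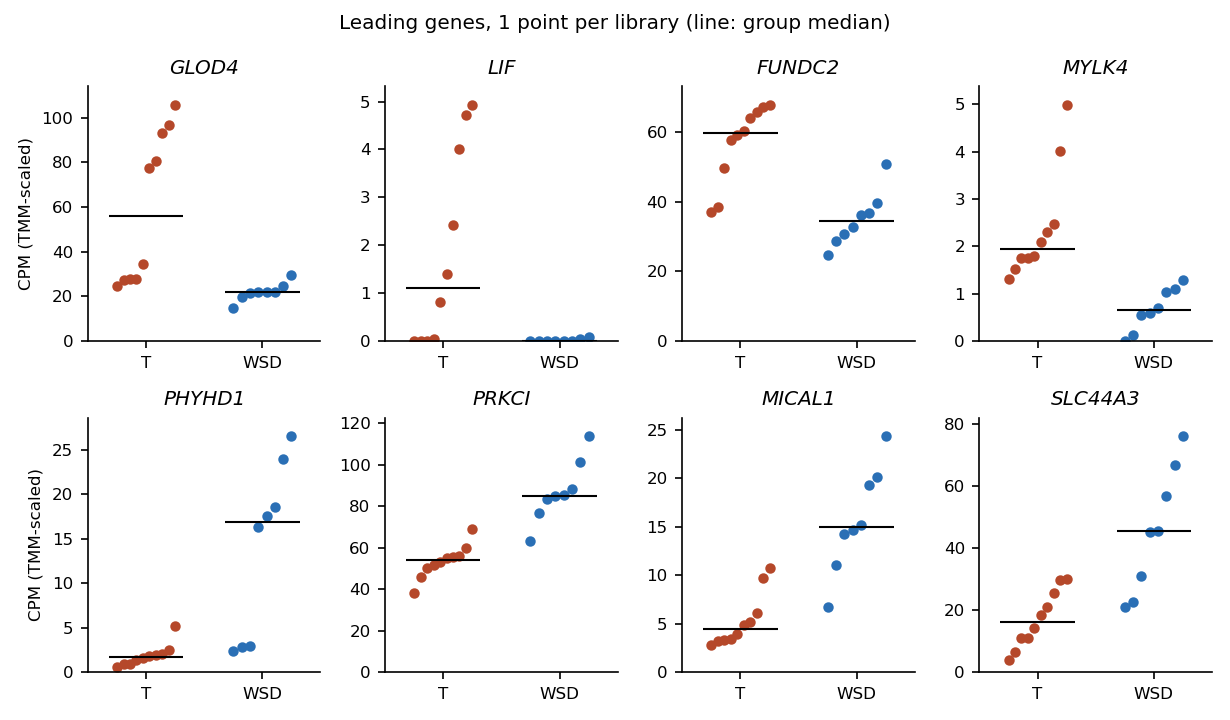
TMM-scaled CPM (y axes, linear from 0) of 8 genes in the 10 T (red) and 8 WSD (blue) libraries, 1 point each, with group medians as lines. GLOD4 in T and PHYHD1 in WSD each form a high and a low set of libraries, and MYLK4 is the gene whose ranges do not meet.

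MYLK4 (ENSMMUG00000007144), a myosin light chain kinase family member, was the only tested gene whose ranges did not overlap (1 of 13128, 0.00762%). Its level was 1.31, 1.95 and 4.99 CPM in T and 0, 0.650 and 1.29 CPM in WSD. The gap between the lowest T and the highest WSD library was 0.02 on the log2 scale. The log2 change was 1.82 ± 0.70 (SE), with unadjusted p = 0.0162 and adjusted p = 0.997 by edgeR. Leaving out a library makes this rule easier to meet. Of 12911 to 13055 genes then tested, such genes numbered 6 without WSD 8 and 3 without WSD 1 or WSD 7. They numbered 2 without T 1, T 5, T 9, T 10 or WSD 6.

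The other leading genes with a higher estimate in T had fitted folds from 1.47 to 5.20. FUNDC2, an outer mitochondrial membrane protein, had 37.2, 59.9 and 67.9 CPM in T and 24.8, 34.5 and 51.0 CPM in WSD, and 7 T libraries exceeded every WSD library. ZNF280A, a zinc finger gene, had 29.1, 40.4 and 76.7 CPM in T and 8.26, 21.5 and 35.6 CPM in WSD, again with 7 T libraries above every WSD library. PAGE1, a cancer-testis antigen, was low in both groups, with 1.41, 4.84 and 32.3 CPM in T and 0.273, 2.02 and 2.94 CPM in WSD, and T 7 and T 8 supplied the high values. The log2 changes of these 3 genes were 0.69 ± 0.17, 1.13 ± 0.29 and 2.38 ± 0.67 (SE). RRP1B, a nucleolar protein of ribosomal RNA processing, MRPL43, a mitochondrial ribosomal protein, and FTSJ1, a transfer RNA methyltransferase, had log2 changes of 0.57, 0.56 and 0.61. TTLL3, a tubulin glycylase, had 1.06. Adjusted p for these 7 genes ran from 0.876 to 0.997 in edgeR.

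The other leading genes with a lower estimate in T had fitted folds from 1.44 to 34.2, the last for CLCN2. SLC44A3, a choline transporter-like protein, had 4.05, 16.3 and 30.0 CPM in T and 21.0, 45.3 and 75.9 CPM in WSD, and 6 WSD libraries exceeded every T library. KIF13B, a kinesin motor, had 4.31, 12.7 and 25.2 CPM in T and 13.8, 29.8 and 40.9 CPM in WSD. CEP350, a centrosomal protein, had 33.8, 47.9 and 53.7 CPM in T and 49.0, 64.5 and 90.1 CPM in WSD, with 7 WSD libraries above every T library. Their log2 changes were -1.41 ± 0.35, -1.18 ± 0.31 and -0.57 ± 0.15 (SE). CYFIP1, a subunit of the WAVE actin regulator, had a log2 change of -0.62. WDR41, a partner of C9orf72, had -0.70. ABHD12, a lysophospholipase, had -0.53 at high counts, with medians of 2287 CPM in T and 3169 CPM in WSD. CLCN2, a chloride channel, had -5.10 ± 1.42 (SE) but was at 0 in 8 T and 3 WSD libraries, and its highest T value was 0.473 CPM. It passed the filter on low values only through 5 WSD libraries, so it had to differ, and it is given as a description. Adjusted p ran from 0.927 to 0.997 for these 7 genes.

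**Figure D4:**
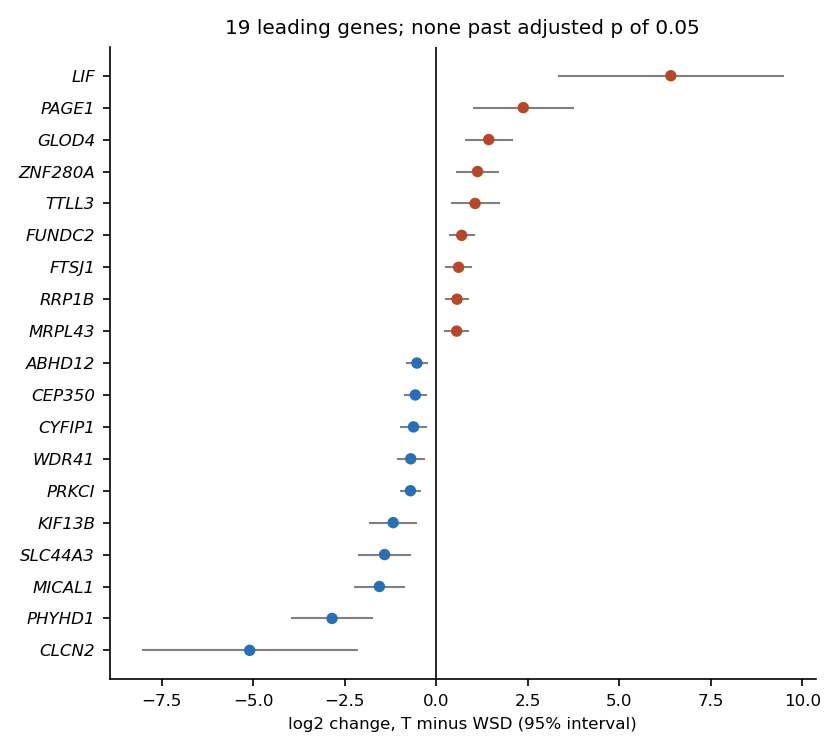
Log2 change, T minus WSD (x axis), with 95% intervals for 19 leading genes (y axis; red higher in T, blue lower). LIF at 6.41 and CLCN2 at -5.10 have the widest intervals and PRKCI at -0.70 and ABHD12 at -0.53 are among the narrowest; no gene passed an adjusted p of 0.05.

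Over these 19 genes, 575 estimates from other settings or with libraries left out all kept the direction of the main estimate. Of these, 5 passed the threshold, all with DESeq2. Settings in which LIF or CLCN2 failed the filter gave no estimate for that gene. These genes were chosen by their p in this same contrast. PHYHD1 varied most like CLIP2 (Pearson r 0.745), CRTC2 (0.744), EZH2 (0.729), PTPN23 (0.705) and UBE2R2 (0.698) across the 18 libraries. These share 1 count table and scaling, and group means were not removed. All of these genes had a lower estimate in T too, from -2.49 for CLIP2 to -0.30 for UBE2R2, so r includes the group difference. The genes with most reads, which also depends on gene length, were NLRP7, KRT18, NLRP2, ACTG1 and ACTB. NLRP7, an oocyte-supplied protein of the NLRP family, had medians of 9933 CPM in T and 9245 CPM in WSD, and the log2 change was -0.12 ± 0.22 (SE). ACTB, cytoplasmic actin, had a change of -0.09 ± 0.14 (SE), with a 95% interval of -0.38 to 0.20.

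Groups of genes were then read through 41 lists with 928 tested members. In every list 0 members passed the test, and 32 members with a higher and 21 with a lower estimate in T had an unadjusted p under 0.05 (5.71% of members, beside 4.25% of all genes). Of all genes tested, 6851 (52.2%) had a higher estimate in T, the share to set beside the counts by direction below. In these bulk samples, fewer cells of a type and less RNA per cell cannot be told apart.

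**Figure D5:**
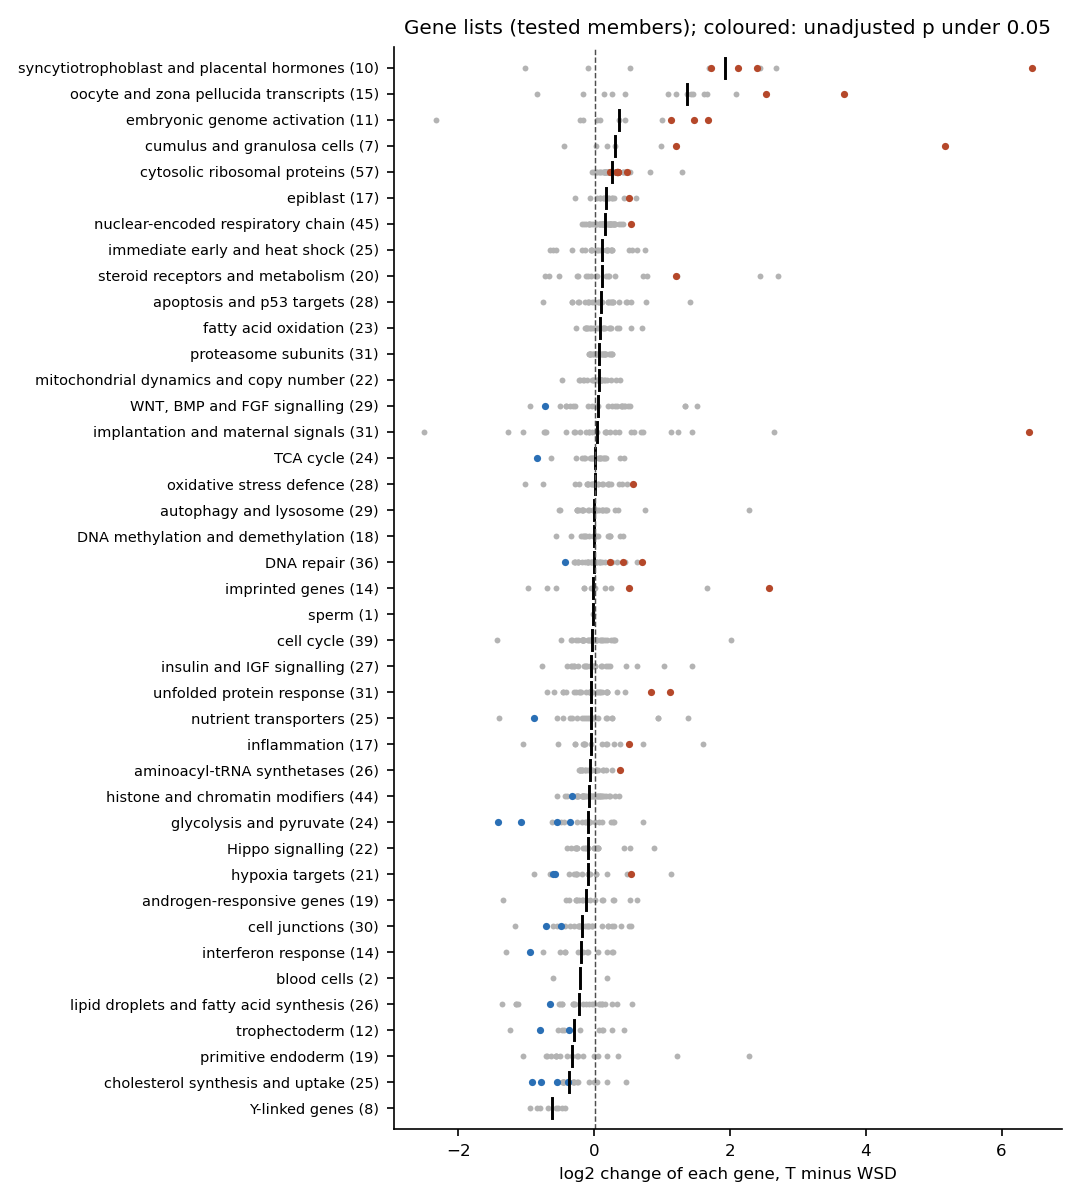
Log2 change, T minus WSD (x axis), of each tested gene in 41 lists (y axis, number tested in brackets), ordered by the list's median (black bar). Coloured points have an unadjusted p under 0.05 (red higher in T, blue lower), and the dashed line is the median of all genes, 0.02; most medians lie close to it.

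Lineage genes had mixed estimates. Of 12 trophectoderm genes, 5 had a higher and 7 a lower estimate in T, with a median log2 change of -0.29, and 2 had an unadjusted p under 0.05. CDX2 was at 34.9, 89.1 and 191 CPM in T and 82.7, 175 and 302 CPM in WSD, with 1 T library above the WSD median. Its log2 change was -0.80 ± 0.29 (SE, adjusted p = 0.997 by edgeR). TFAP2C, a partner in trophectoderm specification, had -0.37 ± 0.15 (SE), while GATA3, another trophectoderm factor, had 0.27 ± 0.35 (SE) with T 1 at 903 CPM and all other T libraries at or under 300.4 CPM, and -0.22 without T 1. Of 17 epiblast genes, 15 had a higher estimate in T and the median was 0.18. POU5F1 was at 359, 751 and 988 CPM in T and 244, 450 and 714 CPM in WSD, a log2 change of 0.52 ± 0.22 (SE), and 6 T libraries exceeded every WSD library. NANOG, its pluripotency partner, had 0.18 ± 0.21 (SE). Of 19 primitive endoderm genes, 14 had a lower estimate in T, with a median of -0.33 and 0 at an unadjusted p under 0.05. SOX17 and GATA6, factors of that lineage, had -0.55 ± 0.36 and -0.16 ± 0.35 (SE). LAMB1, a laminin chain of its basement membrane, had -0.40 ± 0.20 (SE), and -0.20 without T 1, T 11 and WSD 6. OTX2, a homeobox factor, had 1.23 ± 0.61 (SE) with T 11 at 480 CPM and 0.32 without T 11. Without T 1 the list's median was -0.59.

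Syncytiotrophoblast estimates rested on 1 library. Of 10 tested genes, 4 had an unadjusted p under 0.05, all higher in T, and the median log2 change was 1.92. CGA, the alpha subunit of chorionic gonadotropin, was at 0.0926, 0.890 and 1036 CPM in T and 0.0565, 0.418 and 3.43 CPM in WSD. T 1 held the 1036 CPM and the next T library had 4.38 CPM. Without T 1 the log2 change of CGA went from 6.44 to 0.04, that of PGF, a placental growth factor, from 1.72 to -0.23, that of GCM1, the factor that drives syncytial fusion, from 2.12 to 0.70, and the list's median from 1.92 to -0.09. CDKN1C, an imprinted growth inhibitor, was at 127 CPM in T 1 and went from 2.58 to -0.23. FST, which binds activin and is on the granulosa list, was at 571 CPM in T 1 and went from 5.17 to 0.87.

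Transcripts of the oocyte and of genome activation tended to have higher estimates in T. Of 15 tested oocyte genes, 13 had a higher estimate and 2 an unadjusted p under 0.05, with a median of 1.36. WEE2, an oocyte kinase that holds meiosis, was at 0.206, 10.4 and 198 CPM in T and 0, 2.23 and 26.3 CPM in WSD. H1-8, the oocyte linker histone, was at 0, 0.785 and 37.5 CPM in T and at 0, 0 and 1.35 CPM in WSD. T 11 was the highest library for both genes. Without T 1, T 11 and WSD 6 the change went from 2.54 to 1.31 for WEE2 and from 3.68 to 1.83 for H1-8. The list's median was then 0.35, with T 11 left out but WSD 1, the highest WSD library for this list, kept. ZP2 and ZP3, proteins of the zona pellucida, had -0.83 ± 1.34 and -0.16 ± 1.15 (SE), with no stable direction: ZP2 was 1.22 by DESeq2, and ZP3 ran from -1.09 to 0.54 with 1 library left out. Of 11 genes of embryonic genome activation, 8 had a higher estimate, 3 of them with an unadjusted p under 0.05, and the median was 0.37 (0.43 without the same 3 libraries). Besides ZNF280A these were DPRX, a homeobox gene, at 15.5, 74.2 and 226 CPM in T and 5.35, 16.0 and 105 CPM in WSD, and H3Y1, a histone variant. ZSCAN4, a marker of the activation wave, had 0.37 ± 1.45 (SE).

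CYP11A1, which makes pregnenolone from cholesterol and starts steroid synthesis, was at 209, 347 and 829 CPM in T and 30.7, 199 and 298 CPM in WSD. All 10 T libraries were above the WSD median, 7 exceeded every WSD library, and WSD 10 was the lowest. The log2 change was 1.20 ± 0.37 (SE), with unadjusted p = 0.00401 and adjusted p = 0.997 by edgeR, and 1.03 without T 1, T 11 and WSD 6. The granulosa list, to which the gene also belongs, summed to 321 to 1608 CPM in T and to 153 to 402 CPM in WSD. Without T 1 the T sums reached at most 942 CPM. CYP11A1 itself supplied 772 CPM in T 1, 829 CPM in T 8 and 264 CPM in WSD 9, the WSD library with the highest sum. The sums are therefore not separate from the gene's own level. The part of follicle cells in the CYP11A1 estimate was not tested. Of the 14 listed markers, 6 stayed under 1 CPM throughout, among them FSHR, AMH and FOXL2, which define granulosa cells. Others were read in every library of both groups. STAR was at 56.4 CPM in T 5 and 51.6 CPM in WSD 1, and SERPINE2 at 156 CPM in T 10 and 119 CPM in WSD 3. Of 20 tested steroid receptors and enzymes, CYP11A1 was the only one with an unadjusted p under 0.05, and the list's median went from 0.11 to -0.07 without T 1. ESR2, an estrogen receptor, had medians of 0.279 CPM in T and 0 in WSD. Of 19 androgen-responsive genes, 0 had an unadjusted p under 0.05, 7 had a higher and 12 a lower estimate in T, and the median was -0.12. FKBP5, a common androgen target, had -0.22 ± 0.29 (SE) and TMPRSS2, another, had -1.34 ± 1.34 (SE).

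Sterol synthesis genes mostly had lower estimates in T, that is, higher ones in WSD. Of 25 tested genes of cholesterol synthesis and uptake, 21 had a lower estimate in T and 4 an unadjusted p under 0.05, with a median log2 change of -0.38. SREBF2, the transcription factor that drives the pathway, was at 219, 343 and 483 CPM in T and 346, 428 and 624 CPM in WSD. Its log2 change was -0.38 ± 0.16 (SE, adjusted p = 0.997 by edgeR), and 1 T library lay above the WSD median. MVD, an enzyme of the mevalonate pathway, had -0.78 ± 0.32 (SE), LSS, lanosterol synthase, had -0.55 ± 0.26 (SE), and INSIG1, which restrains the pathway when sterols are plentiful, had -0.91 ± 0.40 (SE). WSD 1 went against the other WSD libraries, with 117 CPM of MVD where the next had 372 CPM and 76.5 CPM of LSS where the next had 243 CPM. Mean log2 CPM over the list was 6.81 ± 0.43 (SD, n = 10) in T and 7.14 ± 0.42 (SD, n = 8) in WSD, so the difference was smaller than the spread within either group.

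Fat and sugar metabolism showed single genes with low p. Of 26 genes of lipid droplets and fatty acid synthesis, 17 had a lower estimate in T, with a median of -0.22. FASN, fatty acid synthase, was at 57.2, 83.3 and 153 CPM in T and 43.1, 163 and 220 CPM in WSD, a log2 change of -0.66 ± 0.28 (SE), and no T library exceeded the WSD median. PLIN2, which coats lipid droplets, had 0.00 ± 0.16 (SE). Of 23 fatty acid oxidation genes 0 had an unadjusted p under 0.05, and CPT1A, which brings fatty acids into mitochondria, had 0.71 ± 1.04 (SE). Of 24 glycolysis genes, 4 had an unadjusted p under 0.05, all lower in T, with a median of -0.08 for the list. TPI1, triose phosphate isomerase, was at 203, 314 and 478 CPM in T and 340, 475 and 674 CPM in WSD, a log2 change of -0.54 ± 0.17 (SE). ALDOC, an aldolase, had -1.07 ± 0.37, SLC16A3, a lactate exporter, had -1.41 ± 0.66, and LDHA, lactate dehydrogenase A, had -0.35 ± 0.17 (SE). Without T 1, T 11 and WSD 6 the log2 change of LDHA was -0.13. The 24 genes averaged 7.83 ± 0.15 log2 CPM (SD, n = 10) in T and 8.04 ± 0.09 (SD, n = 8) in WSD, with 2 T and 7 WSD libraries above the median of the 18. Of 24 genes of the citric acid cycle 1 had an unadjusted p under 0.05, PC, pyruvate carboxylase, with -0.84 ± 0.30 (SE). HIF1A, the oxygen-regulated factor that controls many of the glycolysis genes, had -0.30 ± 0.25 (SE), its partner ARNT had -0.58 ± 0.17 and ERO1A, a hypoxia target, had -0.61 ± 0.22 (SE), with 0 and 1 T libraries above the WSD medians of the latter pair. MXI1, another gene of that list of 21, had 0.54 ± 0.25 (SE), and the list's median was -0.09.

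Translation and respiration genes had small positive estimates. Of 57 cytosolic ribosomal protein genes, 56 had a higher estimate in T, as had 52.2% of all genes tested. An unadjusted p under 0.05 was found for 7, and the median log2 change was 0.26, at 0.28 without T 1. RPL8 was at 418, 609 and 786 CPM in T and 411, 463 and 576 CPM in WSD, a log2 change of 0.34 ± 0.12 (SE). RPL3 had 0.23 ± 0.09 (SE), and all 10 T libraries were above its WSD median. These genes vary together, and reads from their near-identical pseudogene copies could not be separated, so single members are uncertain. Mean log2 CPM over the list was 6.70 ± 0.46 (SD, n = 10) in T and 6.48 ± 0.21 (SD, n = 8) in WSD, a difference smaller than the spread within T. Of 45 nuclear-encoded respiratory chain genes, 37 had a higher estimate, with a median of 0.16 and NDUFB9, a complex I subunit, at 0.54 ± 0.26 (SE). All 31 proteasome genes had 95% intervals within 2-fold, and so did all 26 aminoacyl-tRNA synthetase genes. The medians of these lists were 0.08 and -0.05.

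Stress, repair and division genes gave few low p values. Of 36 DNA repair genes 4 had an unadjusted p under 0.05. MRE11, a nuclease of double-strand break repair, was at 66.1, 80.6 and 119 CPM in T and 103, 114 and 128 CPM in WSD, a log2 change of -0.43 ± 0.13 (SE) with 1 T library above the WSD median. XRCC2, a homologous recombination protein, XPC, which senses damage, and APEX1, a base excision enzyme, went the other way with 0.71 ± 0.25, 0.43 ± 0.18 and 0.24 ± 0.11 (SE). Of 31 genes of the unfolded protein response, CEBPB and DDIT3 had higher estimates in T with an unadjusted p under 0.05. CEBPB was at 68.8 CPM in T 1 and at or under 21.2 CPM in the other T libraries, and its log2 change went from 1.12 to 0.62 without T 1. That of DDIT3 went from 0.84 to 0.58 without T 1. HSPA5, the chaperone at the centre of this response, had -0.07 ± 0.21 (SE). PRDX4, a peroxidase of the endoplasmic reticulum, was at 122, 158 and 306 CPM in T and 103, 121 and 163 CPM in WSD, a log2 change of 0.57 ± 0.19 (SE), and all 10 T libraries were above the WSD median. Of 28 genes of apoptosis and p53 targets, 39 cell cycle genes, 29 of autophagy and 25 immediate early and heat shock genes, 0 had an unadjusted p under 0.05. Among 39 cell cycle genes 34 had an interval within 2-fold, and CCNB1, a mitotic cyclin, had 0.02 ± 0.14 (SE).

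Signalling and immune genes gave single members. DUSP6, a feedback inhibitor of FGF signalling through ERK, was at 67.6, 204 and 334 CPM in T and 214, 280 and 431 CPM in WSD, a log2 change of -0.72 ± 0.25 (SE), with 1 T library above the WSD median. It was the only one of 29 genes of WNT, BMP and FGF signalling with an unadjusted p under 0.05. BMP4 had 1.52 ± 0.78 (SE), and 0.79 without T 1, T 11 and WSD 6. STAT2, an interferon signal carrier, had a median of 6.44 CPM in T and 13.8 CPM in WSD, a change of -0.95 ± 0.33 (SE) with no T library above the WSD median. TNFRSF1A, a receptor for tumour necrosis factor, had 0.52 ± 0.22 (SE). Of 27 insulin and IGF signalling genes and 22 Hippo genes, 0 had an unadjusted p under 0.05. INSR, the insulin receptor, had -0.12 ± 0.29 (SE), and YAP1, the Hippo effector, had -0.13 ± 0.32 (SE). Of 30 cell junction genes, PRKCI and DSP, the desmosome protein desmoplakin at -0.48 ± 0.19 (SE), had an unadjusted p under 0.05, both lower in T. CDH1 and TJP1, the proteins of adherens and tight junctions, had -0.08 ± 0.32 and -0.11 ± 0.12 (SE). Of 31 implantation genes, LIF, kept by the filter through T libraries alone, was the only one with an unadjusted p under 0.05. Of 25 nutrient transporters, SLC1A1, a glutamate carrier, had -0.89 ± 0.40 (SE), and SLC7A6, an amino acid carrier, went from 1.38 to -0.61 without T 1, where it was at 428 CPM.

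Most epigenetic genes had intervals within 2-fold. Of 18 genes of DNA methylation and demethylation, 15 had an interval within 2-fold and 0 had an unadjusted p under 0.05. DNMT3A, a de novo methyltransferase, had 0.20 ± 0.27 (SE), and TET1, which oxidises methylcytosine, had -0.34 ± 0.18 (SE). Of 44 histone and chromatin modifiers, 40 had an interval within 2-fold, and EZH2, the Polycomb methyltransferase, was at 59.0, 83.9 and 95.7 CPM in T and 70.2, 101 and 130 CPM in WSD, a change of -0.32 ± 0.14 (SE) with no T library above the WSD median. Of 14 imprinted genes, NDN had 0.51 ± 0.23 (SE). TFAM, a mitochondrial DNA-binding factor, had 0.32 ± 0.21 (SE), and 0 of 22 genes of mitochondrial dynamics had an unadjusted p under 0.05.

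Y-linked RNA divided the libraries into sets that crossed the treatments. The summed level of 11 matched Y-linked genes was 643 CPM or more in 4 of 10 T and 5 of 8 WSD libraries, and 59.4 CPM or less in the rest. T 11 with 59.4 CPM and T 4 with 23.1 CPM lay between these sets, and every other low library had 1.84 CPM or less. All 8 tested Y-linked genes had a lower estimate in T, with a median of -0.62, and 0 had an unadjusted p under 0.05. With the Y-linked level as a covariate, edgeR called 0 genes and 669 (5.1%) had an unadjusted p under 0.05. The estimates for PHYHD1, PRKCI, GLOD4 and MICAL1 were then -2.73, -0.66, 1.34 and -1.59.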

How the data were processed

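RNA of 18 blastocyst libraries was compared. The deposited values are raw whole-number counts per gene on Mmul_10, and the submitters' processing notes name FastQC 0.11.8, Trimmomatic 0.39 and STAR 2.7.0. For the counting tool, its strand setting and the authors' test, nothing is stated in the sources used here. Groups came from the labels' titles. Genes reaching 1 CPM in 5 or more of the 18 libraries were kept, scaled by TMM and tested with edgeR 4.0.16 (quasi-likelihood, robust; R 4.3.3), with Benjamini-Hochberg adjustment over all 13128 genes; levels are TMM-scaled CPM, and log2 CPM for profiles and list means used a prior count of 2. The test was checked on simulated data for bias and false calls. Finding changed genes was required there only at a spread far below that estimated, so the check does not show how many real changes could be found here. Alternatives used DESeq2 1.42.0, limma 3.58.1 and sva 3.50.0. Symbols came from a table of gene names, which gave 24173 of 35395 genes a symbol; 1033 of 1096 listed symbols matched, and for 8 with several identifiers the one with most counts was used. Positions are not given, because the only annotation used here is of another build. Named genes are the 10 per direction with the smallest p and a symbol, the 2 smallest p and 2 anchors of each list, genes whose ranges do not overlap, the 5 with most reads and the 5 most like PHYHD1; other members and genes called by DESeq2 were named after their values were seen. A few genes that this rule picks are not reported here. The comparison, its lists and its rules were chosen with earlier results of these data known. No library was a copy of another: read counts of every pair differed far beyond sampling noise.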

Additional observations from a re-analysis of the deposited data

Results flagged for a closer look

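Each library was compared with the others of its own treatment, by the gap to its nearest neighbour as a share of the group's range, in 422 groups of values (211 measures in T and in WSD, gene levels taken on the log2 scale). Chance picks out about 1 in 20 groups, and 45 values stood apart here, 20 of them in T 1, 6 in WSD 1 and 7 in WSD 6. No cause was tested.

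The next value given below is that of the nearest library of the same treatment. T 1 had the lowest mean correlation with the other libraries (0.788, next in T 0.846). Its mean level of syncytiotrophoblast genes was 7.54 log2 CPM (next in T 3.36), and its mean for aminoacyl-tRNA synthetases was the lowest of T at 7.45 (next 7.72). High in T 1 were the placental genes CGA (1036 CPM), PGF (1401 CPM), ERVFRD-1 (62.3 CPM) and GATA3 (903 CPM). Also high there were FST (571 CPM), CDKN1C (127 CPM), FGFR1 (1424 CPM), SLC7A6 (428 CPM), YAP1 (164 CPM) and AMOTL2 (372 CPM). The last high values in T 1 were XIAP at 118 CPM, CEBPB at 68.8 CPM and the insulin receptor INSR at 24.0 CPM. Low in T 1 were the adhesion protein CDH1 (9.17 CPM), citrate synthase CS (403 CPM), DUSP1 (22.4 CPM) and the cytokine IL6 (0 CPM).

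WSD 1 had the lowest mean of the cholesterol list in WSD (6.22 log2 CPM, next 7.07), with MVD at 117 CPM and LSS at 76.5 CPM. It was also lowest of WSD for GAPDHS (0.859 CPM), the only sperm marker tested, and AMOTL2 (147 CPM), and highest for ESR2 (2.45 CPM). WSD 6 lay at -147.3 on the second principal component (next 0.58) and had the lowest mean of chromatin modifiers in WSD (5.20 log2 CPM, next 5.61). In WSD 6 the levels of BRCA1 (25.6 CPM), AKT2 (0.983 CPM), ZBTB10 (0.874 CPM) and HSD11B2 (0 CPM) were low, and IL6 (24.95 CPM) was high.

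The other libraries gave single values. WSD 10 was lowest of WSD for RRP1B (46.1 CPM), CYP11A1 (30.7 CPM) and NDN (13.3 CPM). WSD 8 was lowest for the mean of primitive endoderm genes (3.99 log2 CPM, next 5.51) and highest for FTSJ1 (58.8 CPM). WSD 7 was lowest for XIAP (0 CPM), and WSD 9 for VEGFA (0.281 CPM). Among T libraries, T 5 was highest for WDR41 (65.2 CPM), T 3 for CLCN2 (0.473 CPM), T 11 for OTX2 (480 CPM) and T 8 for XRCC2 (67.9 CPM), and T 7 was lowest for SOD2 (7.62 CPM).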

How the results depend on the processing

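DESeq2 called 9 of 13128 genes. EdgeR called 0 under other size factors, other filters, all 25 libraries, a surrogate variable and each library left out. Its genes at an unadjusted p under 0.05 ran from 237 of 13934 (1.7%, all 25 libraries) to 4605 of 31167 (14.8%, no filter beyond 1 count). The lowest adjusted p was 0.0807 without WSD 1, 0.0928 without T 1 and 0.0625 without T 1, T 11 and WSD 6. With a replicate block the count was 0 and 593 genes (4.52%) had an unadjusted p under 0.05. The labels do not say whether the 8 shared replicate numbers pair the samples. Correlations between libraries that share a number ran from -0.232 to 0.241, and 2 were over 0.1. Of the T libraries, 1 correlated best with its own number. These values have no reference to judge them by, so a pairing stays unknown. With 1 library left out, the difference in distance to centre ran from -5.52 to 11.6, that in genes detected from -350.4 to 619.6, and genes whose ranges do not overlap from 1 to 6 (6 without WSD 8).

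Of 175 named genes, 39 turned direction under some setting, and the cause was not tested. None was among the 19 leading genes, which were chosen by their p in this same contrast, so their kept direction is no support. Without T 1, T 11 and WSD 6 the values were CGA -0.64, PGF -0.078, HSD11B2 -0.0052, GAPDHS 0.085, WIPI1 -1.04, SLC7A6 -0.58, GATA3 -0.22, NANOG -0.030, ACADM -0.079 and IGF1R -0.12. The same setting gave HSPA5 0.019, VEGFA -0.54, IL6 0.11, DNMT1 -0.61, CDH1 0.0076, FGFR1 -0.37, HBEGF -0.28, PSMA1 -0.018, SARS1 -0.11 and SLC2A1 0.064. DESeq2, with outlying counts replaced, gave PGF -0.22, WIPI1 -0.74, CDKN1C -0.24, SLC7A6 -0.58, ZP2 1.22, VEGFA -0.58 and FGFR1 -0.33. Voom gave PGF -0.099, LYZ 0.082, IFIT1 0.79, SLC7A6 -0.58, GATA3 -0.24, ZP2 1.73, ACADM -0.11, HSPA5 0.11, DNMT1 -0.41 and FGFR1 -0.33. The same setting gave HBEGF -0.18 and SARS1 -0.075. The replicate block gave GAPDHS 0.25, WIPI1 -0.11, IFIT1 0.52, SLC7A6 -0.26, ACTG1 -0.038, GATA6 0.024, ZP2 1.87, FKBP5 0.056, HSPA5 0.090 and CCNB1 -0.028. The same setting gave MCM4 0.060, VEGFA -0.28, DNMT1 -0.29, FGFR1 -0.13, HBEGF -0.59, PSMA1 -0.13, SARS1 -0.073 and POLG 0.095. For the Wilcoxon setting the change was the difference in mean log2 CPM, not an estimate from the rank test. It gave GAPDHS 0.092, IFIT1 0.28, SLC7A6 -0.25, GATA3 -0.034, ZP2 0.59, HSPA5 0.035, DNMT1 -0.20, FGFR1 -0.14, HBEGF -0.044 and SARS1 -0.029. The same setting gave POLG 0.0010. The Y-linked covariate gave GAPDHS 0.12, USP9Y 0.033, GATA6 0.038, CS 0.021, MCM4 0.020, DNMT1 -0.076, PSMA1 -0.0026, SARS1 -0.055 and POLG 0.068. A surrogate variable gave MS4A1 -1.15, IFIT1 0.72, ZP2 0.026, CPT1A -0.25, PLIN2 -0.069, CCNB1 -0.014 and DNMT1 -0.034. Library totals gave POLG 0.011. No filter gave PLIN2 -0.014. All 25 libraries gave PLIN2 -0.0075.

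With 1 library left out, estimates ran for PGF from -0.23 to 1.91, GAPDHS from -0.19 to 0.15, LYZ from -1.01 to 0.054, MS4A1 from -0.010 to 0.34, WIPI1 from -0.74 to 2.79 and IFIT1 from -1.80 to 0.46. They ran for CDKN1C from -0.23 to 2.87, SLC7A6 from -0.61 to 1.53, ACTG1 from -0.018 to 0.091, GATA3 from -0.22 to 0.40, GATA6 from -0.32 to 0.089 and ZP3 from -1.09 to 0.54. They ran for CS from -0.10 to 0.040, ACADM from -0.050 to 0.27, PLIN2 from -0.072 to 0.089, INSR from -0.28 to 0.023, HSPA5 from -0.18 to 0.15 and CCNB1 from -0.023 to 0.080. They ran for MCM4 from -0.096 to 0.034, VEGFA from -0.61 to 1.43, IL6 from -0.71 to 0.36, DNMT1 from -0.35 to 0.17, CDH1 from -0.22 to 0.063 and YAP1 from -0.51 to 0.043. They ran for FGFR1 from -0.35 to 0.64, ZSCAN4 from -0.0054 to 1.29, HBEGF from -0.26 to 0.47, PSMA1 from -0.065 to 0.099, SARS1 from -0.060 to 0.11 and POLG from -0.14 to 0.16.

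At the shallowest depth 1 CPM was about 14.2 reads, so levels under 1 CPM are imprecise. The spread between embryos sets the precision: the median half-width of the 95% interval was 0.68 on the log2 scale.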
